A study of Mus musculus with 33 samples.

Results

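Selp, Jam2, Clu, Nupr1, Aldh1a1, Sult1a1, Plscr2 and Clca3a1 are genes whose transcripts are known to be higher in hematopoietic stem cells (HSCs) of old than of young mice. They were taken by symbol, and all 8 were found among the 55376 gene symbols counted in each library. No library of young mice was analysed here, so their levels were compared among old mice only, between treatments and between cell types. The libraries were made from total RNA of sorted bone marrow cells of male C57BL/6 mice aged 24 to 29 months. Old mice without the supplement (O-WT) were compared with old mice that drank 12 mM nicotinamide riboside (NR) for 4 to 6 weeks (O-NR), and in cohort 1 also with mice kept for 2 months after the supplement was withdrawn (O-NR-RC). NR is a vitamin B3 form from which cells make NAD+. Cohort 1 holds 9 HSC libraries, 2 from O-WT mice, 4 from O-NR mice and 3 from O-NR-RC mice. Cohort 2 holds 4 O-WT and 4 O-NR libraries each of HSCs, of common lymphoid progenitors (CLPs) and of progenitors of granulocytes and monocytes (GMPs), which a label field calls common myeloid progenitors. The HSC gate took live Lin- cells positive for cKit, Sca1 and CD150 and negative for CD34 and Flk2. Neither the labels nor the methods say whether a library is 1 mouse, so the p-values below measure the spread between libraries, which may in part be technical.

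HSCs renew themselves and give rise to all blood cells. With age they grow in number, their output shifts from lymphocytes towards myeloid cells and platelets, and a recurrent group of transcripts becomes more abundant in them. That group holds surface and adhesion proteins (Selp, Jam2), stress proteins (Clu, Nupr1), enzymes that act on small molecules (Aldh1a1, Sult1a1) and members of membrane protein families (Plscr2, Clca3a1), and for many of them the role in HSCs is not settled.

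The promoters of 4 of the 8 genes are shown because the results below turn on them. Selp and Nupr1 had the largest differences between O-NR and O-WT HSCs of cohort 2, in opposite directions, and Sult1a1 and Clca3a1 varied most there between libraries of a group. Each sequence spans a transcription start, most of it upstream (RefSeq, GRCm38.p6), at chr1:164115014-164115313 (plus strand), chr7:126625421-126625720 (minus), chr7:126676369-126676668 (minus) and chr3:144760928-144761227 (minus). Capitals mark matches to motifs of factors that act in blood cells, searched on both strands.
Selp: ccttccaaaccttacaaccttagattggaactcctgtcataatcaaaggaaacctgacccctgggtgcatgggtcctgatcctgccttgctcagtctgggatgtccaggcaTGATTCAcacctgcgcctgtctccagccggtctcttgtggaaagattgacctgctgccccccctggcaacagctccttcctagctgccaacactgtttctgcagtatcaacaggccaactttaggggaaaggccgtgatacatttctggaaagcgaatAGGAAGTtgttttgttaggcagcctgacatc
Nupr1: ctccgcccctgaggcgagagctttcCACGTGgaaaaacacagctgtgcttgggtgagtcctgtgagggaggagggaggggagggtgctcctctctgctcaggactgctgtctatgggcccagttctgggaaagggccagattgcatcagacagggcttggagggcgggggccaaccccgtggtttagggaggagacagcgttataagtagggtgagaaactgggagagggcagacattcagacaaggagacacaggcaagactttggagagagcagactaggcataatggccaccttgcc
Sult1a1: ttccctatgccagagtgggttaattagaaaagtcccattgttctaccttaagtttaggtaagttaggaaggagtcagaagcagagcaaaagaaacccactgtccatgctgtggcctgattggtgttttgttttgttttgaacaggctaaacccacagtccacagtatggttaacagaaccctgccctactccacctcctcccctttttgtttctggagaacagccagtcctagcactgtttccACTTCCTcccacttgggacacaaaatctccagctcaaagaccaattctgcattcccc
Clca3a1: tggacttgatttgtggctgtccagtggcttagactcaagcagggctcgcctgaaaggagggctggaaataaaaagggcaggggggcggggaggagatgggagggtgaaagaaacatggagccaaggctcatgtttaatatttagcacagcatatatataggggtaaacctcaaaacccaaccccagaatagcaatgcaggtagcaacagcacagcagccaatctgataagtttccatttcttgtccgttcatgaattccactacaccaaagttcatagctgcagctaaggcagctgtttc

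The Selp promoter held the ETS letters AGGAAGT and the AP-1 letters TGANTCA. The Nupr1 promoter held the E-box CACGTG, and the Sult1a1 promoter held the ETS letters on the opposite strand. The Clca3a1 promoter held none of the 5 motifs searched, the others being the RUNX letters TGTGGT and the GATA letters AGATAA. Among 32851 mouse promoters of the same length, 9.35% held the ETS letters, 7.81% the AP-1 letters, 7.15% the E-box, 16.8% the RUNX letters and 11.2% the GATA letters, and the motifs do not overlap in the promoters shown. These matches are letters in a window and not measured binding. Aldh1a1 has an entry for a pair of starts, with an AP-1 match in one and a GATA match in the other. Clu, Plscr2 and Jam2 were not in the promoter table used here.

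Libraries held 4792380 to 23816042 reads on genes, and every HSC library at least 8434214. HSC marker genes (Procr, Mecom, Hlf, Hoxb5, Fgd5) summed to 589.6 to 1109.9 counts per 1000000 reads on genes (CPM) in HSC libraries, 42.9 to 104 CPM in CLP and 23.7 to 44.7 CPM in GMP libraries. Markers of CLPs and GMPs were likewise highest in the cells so labelled, at sums of 2577 to 4135 CPM and 17308 to 19963 CPM. Olfactory and vomeronasal receptor genes, 1736 genes that blood cells are not known to use, differed between libraries in their sum. In cohort 1 the libraries O-NR 1, O-NR 2, O-NR-RC 2 and O-NR-RC 3 held 13739 to 14712 CPM of them and the other 5 HSC libraries 4281 to 8731 CPM. In cohort 2 the sums were 1441 to 4494 CPM in HSC, 2035 to 8004 CPM in CLP and 832 to 2294 CPM in GMP libraries. Cohort 1 is therefore also described without those 4 libraries.

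All 8 genes were far higher in HSCs than in the 2 progenitor types of cohort 2. Sult1a1, a cytosolic sulfotransferase of phenolic compounds, differed most, by a log2 fold change of 5.52 (95% interval 5.09 to 5.95) against CLPs and 6.07 (5.63 to 6.52) against GMPs, which is 45.7-fold and 67.3-fold. Clca3a1, of the family of calcium-activated chloride channel regulators, followed with 5.20 and 5.58. Aldh1a1, which oxidizes retinaldehyde to retinoic acid with NAD+ as its cofactor, was higher by 5.10 and 4.88 on the log2 scale. Selp encodes P-selectin, an adhesion receptor best known from platelets and endothelium, and was higher by 4.97 and 4.28. Nupr1, a small nuclear protein induced by cell stress, was higher by 4.15 and 4.38, and Clu, the secreted chaperone clusterin, by 3.78 and 4.00. Plscr2, of the phospholipid scramblase family, was higher by 3.48 and 4.47. The smallest difference was that of Jam2, a junctional adhesion molecule that binds its relative Jam3, with 2.90 (2.56 to 3.25) and 3.51 (3.16 to 3.87).

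All 8 genes passed edgeR's quasi-likelihood test in both comparisons, with adjusted p-values of at most 2.51e-35 against CLPs and 4.99e-43 against GMPs. Of all genes tested, 10.4% were called higher in HSCs than in CLPs and 8.63% higher in HSCs than in GMPs, with 18.7% and 19.2% called in either direction. The median log2 difference of the 8 genes was 4.56 against CLPs and 4.42 against GMPs, where all genes tested had medians of -0.21 and 0.17. These comparisons were averaged over both treatments.

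**Figure D1:**
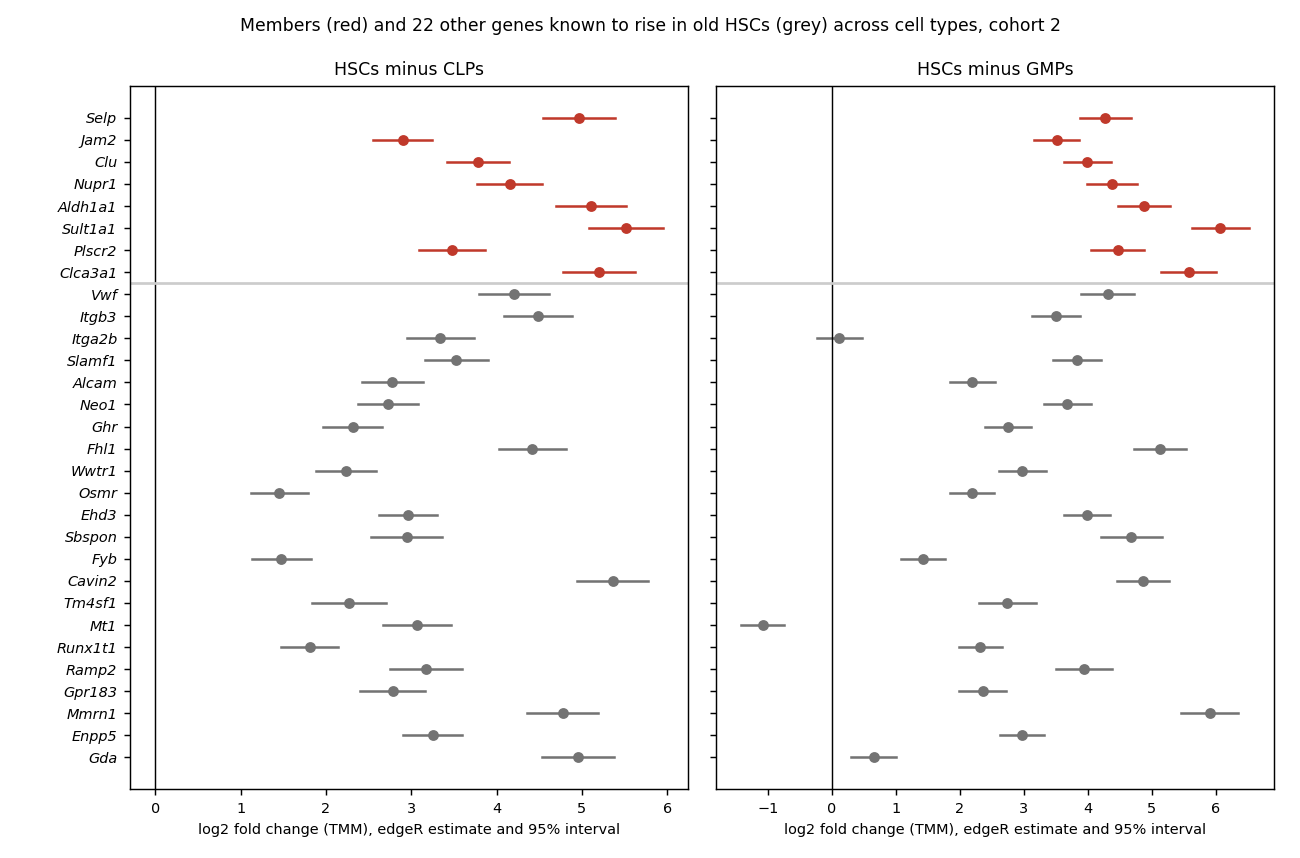
Log2 fold changes between cell types of cohort 2 from edgeR, as points with 95% intervals, for the 8 genes (red) and 22 further genes known to be higher in old HSCs (grey), HSCs against CLPs on the left and against GMPs on the right. The red points lie between 2.90 and 5.52 on the left and between 3.51 and 6.07 on the right, and Mt1 is the only grey point below 0 on the right.

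The cell types did not overlap for any of the 8 genes, in that the lowest HSC library of either cohort lay above the highest CLP or GMP library. The share of all genes without such overlap was not computed. Further genes known to be higher in old HSCs, such as Vwf and Itgb3, also had none. Sult1a1 had a lowest value of 112 CPM in cohort 2 HSCs, 17.3 times the highest in any progenitor library. For Clca3a1, Aldh1a1 and Selp this ratio was 17.0, 13.7 and 11.5, for Clu, Nupr1 and Plscr2 it was 5.64, 4.82 and 3.49, and for Jam2 it was 2.52. In bulk libraries, fewer cells with a transcript and less of it per cell cannot be told apart.

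Low counts of the 8 genes were present in every progenitor library. The median level in CLPs was highest for Selp (9.02 CPM) and Jam2 (8.75 CPM) and lowest for Plscr2 (3.86 CPM), and in GMPs it was 10.2 CPM for Selp and between 1.57 CPM for Plscr2 and 4.89 CPM for Aldh1a1 otherwise. Set against the receptor genes of the same library per kilobase of exon, the medians of the 8 genes were 2.04 to 4.33 times that level in CLPs and 1.56 to 8.29 times in GMPs, with Selp in GMPs the highest. In HSCs of cohort 2 the same medians were 23.0 to 227 times the receptor level.

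**Figure D2:**
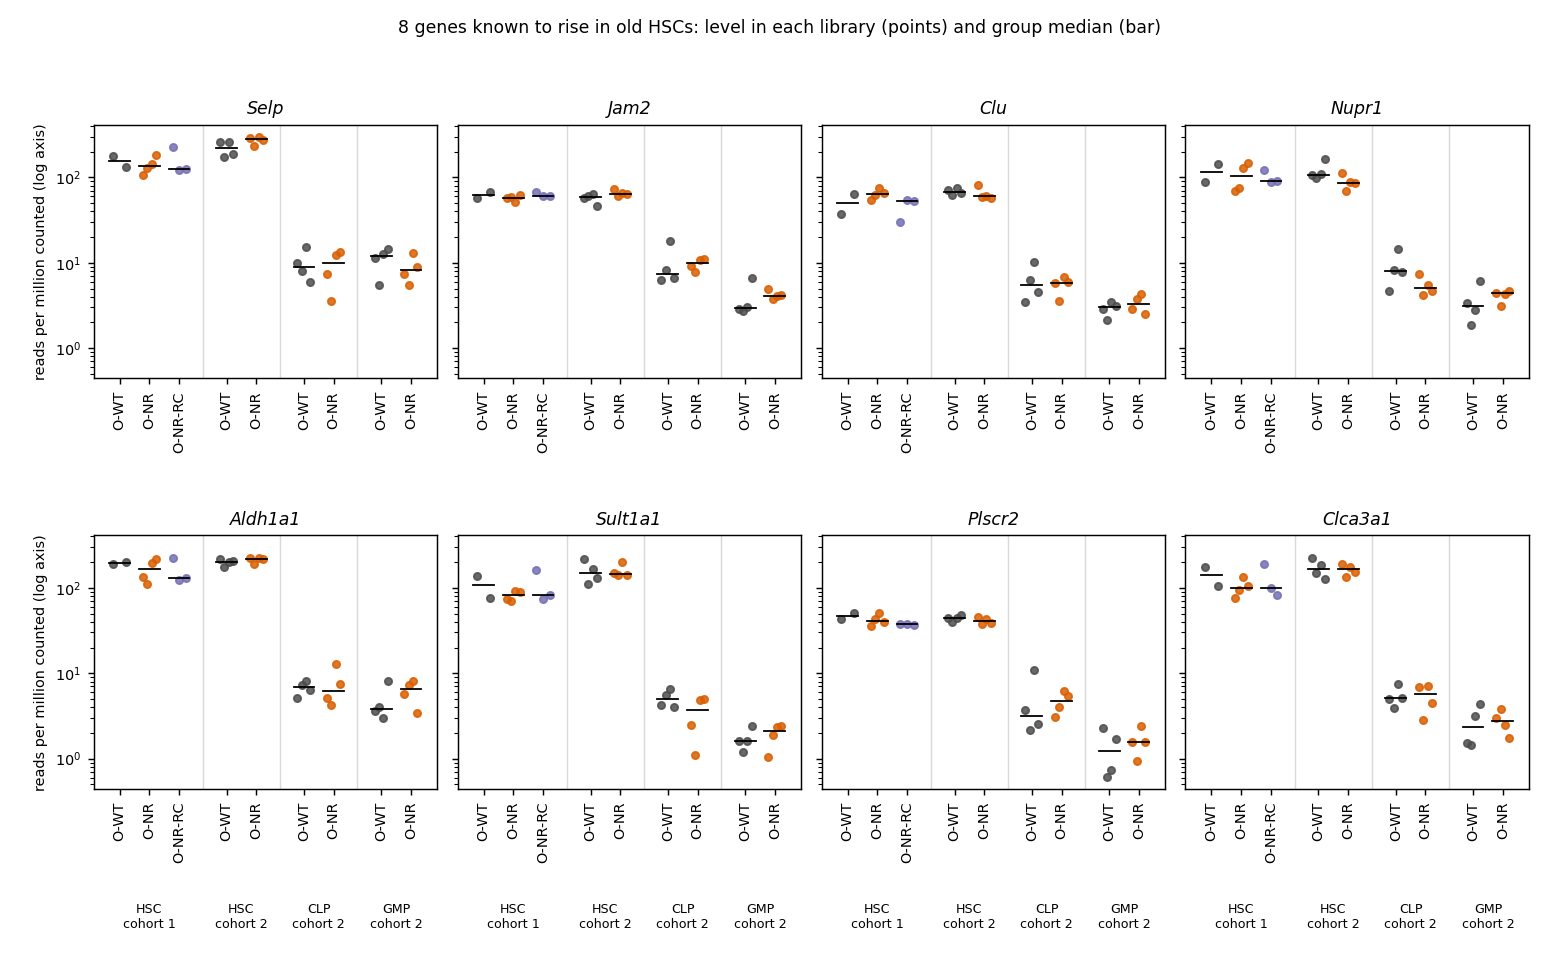
Level of each of the 8 genes in every library (points, CPM on a log axis) with the group median (bar), by cell type, cohort and treatment. For each gene the HSC libraries of both cohorts form a band above all CLP and GMP libraries, and the treatments overlap within that band, except Clu between O-NR and O-NR-RC and Plscr2 between O-WT and O-NR-RC of cohort 1.

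Levels were compared between the genes as CPM per kilobase of merged exon (mean ± SD, n = 8 HSC libraries of cohort 2). Sult1a1 was highest at 104 ± 23.6, followed by Selp at 56.0 ± 10.4. Clca3a1, Aldh1a1 and Nupr1 lay at 42.8 ± 8.52, 41.7 ± 3.68 and 41.3 ± 11.1 and were not separated, since Clca3a1 exceeded Aldh1a1 in 4 of 8 libraries and Aldh1a1 exceeded Nupr1 in 5 of 8. Clu followed at 19.4 ± 2.47, Plscr2 at 13.4 ± 1.11 and Jam2 at 10.1 ± 1.29, each above the next in 8 of 8 libraries. Per kilobase, Jam2 stood above 92.8% and Sult1a1 above 99.7% of all genes. In cohort 1 Sult1a1 was again first (63.5 CPM per kilobase), and Clu, Plscr2 and Jam2 again last in that order, while Nupr1 (42.2) and Aldh1a1 (34.3) stood above Selp (34.0).

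On the mm10 genome (Gencode M21) Selp lies at chr1:164115264-164150026, Clu at chr14:65968483-65981547, Nupr1 at chr7:126623249-126630861, Aldh1a1 at chr19:20492715-20643465, Sult1a1 at chr7:126672865-126676432, Plscr2 at chr9:92275602-92297752, Clca3a1 at chr3:144729677-144760977 and Jam2 at chr16:84774123-84825928. All are protein-coding. Exons of genes on the opposite strand overlap those of Selp (Gm16548 and Gm16587), Sult1a1 (Sgf29, 61 bases) and Clca3a1 (Gm34866, 170 bases), and without the strand setting of the counting such reads cannot be assigned. Of the 100-base stretches of its transcripts, 7.73% of Selp, 9.47% of Clca3a1, 1.75% of Sult1a1 and 0.0203% of Aldh1a1 occur in another gene as well, for Clca3a1 mostly in Clca3a2. The near relatives Aldh1a7, Clca3a2 and Clca3b lay at 0.354 to 6.05 CPM in HSCs of cohort 2, where Aldh1a1 and Clca3a1 lay at 173 to 224 and 127 to 226 CPM.

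Next, O-NR was compared with O-WT in HSCs of cohort 2, the comparison that asks whether NR in life alters the aged stem cells. None of the 8 genes was called at an unadjusted p-value below 0.01, the threshold taken from the study's heatmaps, where 0.777% of 17364 genes were called, and no gene tested passed an adjusted p-value of 0.05. DESeq2's Wald test also called none of the 8. At an unadjusted p-value below 0.05, 2 of the 8 passed in DESeq2, for which the share of all genes is not given here. In edgeR 3 of the 8 passed that threshold, as did 4.06% of all genes. The 3 were Selp, Jam2 and Nupr1, each with an adjusted p-value of 0.995. In exact two-sided permutation tests over the 70 regroupings of the libraries, whose smallest possible p is 0.0286, each of the 3 had p = 0.114. For none of the 8 genes were the groups without overlap, as they were for 3.09% of all genes.

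Of the adhesion genes, Selp measured 257, 175, 260 and 188 CPM in the O-WT libraries 1 to 4 and 290, 232, 301 and 274 CPM in the O-NR libraries. The O-WT libraries 2 and 4 were the low ones, and the groups overlapped because O-NR 2 lay below O-WT 1 and 3. The log2 difference was 0.37 (95% interval 0.03 to 0.71, unadjusted edgeR p of 0.0351), a ratio of 1.29. Without O-WT 2 it was 0.24 (p of 0.118), and without O-WT 1 it was 0.48 (p of 0.00693). Jam2 measured 57.6, 59.9, 64.8 and 45.7 CPM in O-WT and 72.8, 60.0, 65.0 and 64.5 CPM in O-NR. O-WT 4 was the lowest library and O-NR 1 the highest, with the other 6 between 57.6 and 65.0 CPM. The log2 difference of Jam2 was 0.26 (0.01 to 0.51, unadjusted edgeR p of 0.0436) and 0.16 (p of 0.169) without O-WT 4.

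Of the stress genes, Nupr1 measured 105, 99.2, 108 and 164 CPM in O-WT and 112, 69.4, 88.0 and 85.4 CPM in O-NR. O-WT 4 stood apart above all others, and O-NR 1 lay among the O-WT libraries. The log2 difference was -0.38 (-0.76 to -0.0047, unadjusted edgeR p of 0.0475), a ratio of 0.768, and without O-WT 4 it was -0.18 (p of 0.241). Clu measured 70.5, 62.6, 75.7 and 66.0 CPM in O-WT and 81.6, 59.1, 61.3 and 57.7 CPM in O-NR. The O-NR group thus held both the highest library and the 3 lowest, and the log2 difference was -0.04 (-0.31 to 0.24).

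Among the enzymes and membrane proteins, Aldh1a1 measured 218, 173, 198 and 206 CPM in O-WT and 224, 188, 223 and 217 CPM in O-NR, a narrow band in both groups, with a log2 difference of 0.14 (-0.14 to 0.42). Sult1a1 measured 217, 112, 166 and 130 CPM in O-WT and 151, 142, 200 and 140 CPM in O-NR, so the O-WT libraries held both the lowest and the highest value, and the log2 difference was 0.06 (-0.36 to 0.48). Clca3a1 measured 226, 148, 183 and 127 CPM in O-WT and 191, 132, 176 and 152 CPM in O-NR, with a log2 difference of -0.02 (-0.40 to 0.35). Plscr2 lay between 37.9 and 48.0 CPM in all 8 libraries, with a log2 difference of -0.05 (-0.30 to 0.20). The intervals of the 5 genes with p-values above 0.05 reach at most 0.48 upwards and -0.40 downwards.

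The directions of Selp, Jam2 and Nupr1 were the same under every alternative tried, and Selp and Nupr1, though not Jam2, passed the threshold under some. With the receptor gene sum as a covariate, Selp (0.29, unadjusted edgeR p of 0.00632) and Nupr1 (-0.47, p of 0.00108) were called, in a fit that called 2.26% of all genes. B and plasma cell markers (Ighm, Jchain, Cd79a, Ms4a1, Mzb1) also differed in their sum, at 41.5 to 449 CPM in O-WT and 13.5 to 32.2 CPM in O-NR. Of the 5, 2 were under 10 CPM in every library and none was at 0 in all. Only 3 of the 5 were high enough to be tested, with log2 differences of -4.86 to -0.24, and 1 was called lower, where 0.777% of all genes were called. Megakaryocyte and platelet markers, cells in which Selp is known to be high, summed to 114 to 161 CPM in O-WT and 108 to 141 CPM in O-NR, mostly Itga2b, and Gp1bb was at or near 0 (at most 0.237 CPM). Itga2b is also one of the further genes known to be higher in old HSCs, and it reached 101 CPM in GMPs. The part of these marker sets in the differences was not tested.

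**Figure D3:**
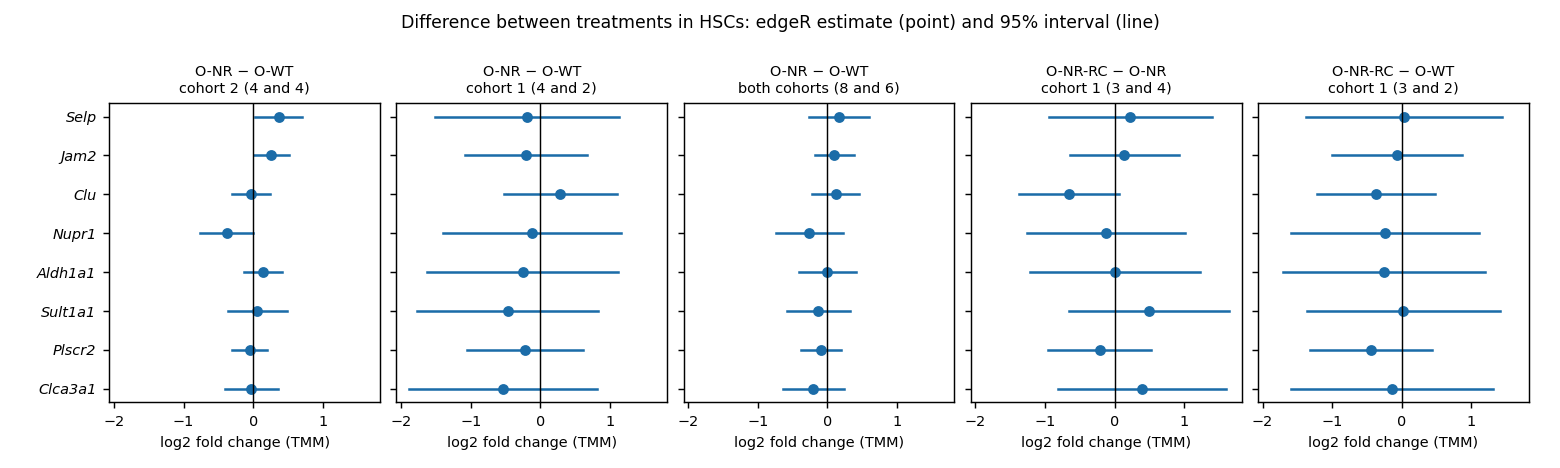
Log2 fold changes between treatments in HSCs (points, edgeR) with 95% intervals (lines) for the 8 genes in each comparison. In cohort 2 the intervals of Selp, Jam2 and Nupr1 end just short of 0, and in cohort 1, with its wider intervals, all cross 0.

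A pair of the genes can also be set against each other within a library, which no scaling between libraries alters. Selp and Nupr1 were chosen for this after their values had been seen, so the ratio is a description with no test. They had the largest differences between O-NR and O-WT HSCs of cohort 2, in opposite directions, so their ratio restates those differences. How often other gene pairs lack overlap was not computed. In cohort 2 there were 2.44, 1.76, 2.40 and 1.15 Selp reads per Nupr1 read in the O-WT libraries and 2.59, 3.34, 3.41 and 3.21 in the O-NR libraries, and the groups did not overlap. In cohort 1 the ratio was 2.01 and 0.927 in O-WT, 1.12 to 1.71 in O-NR and 1.38 to 1.87 in O-NR-RC, and the groups overlapped. Other pairs were computed as well. Nupr1 reads per Jam2 read, which share Nupr1, also had no overlap in cohort 2 (1.66 to 3.59 in O-WT, 1.16 to 1.54 in O-NR). The ratios of Sult1a1 to Clu and of Clca3a1 to Clu overlapped between these groups.

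In CLPs and GMPs the 8 genes were low and no difference between treatments was called. None of the 8 in CLPs and none of the 6 that passed the filter of 3 CPM in GMPs (all but Sult1a1 and Plscr2) had an unadjusted p-value below 0.05 in edgeR or DESeq2, where 3.21% and 4.83% of all genes passed that threshold in edgeR and 0.412% and 0.986% were called. The log2 differences in CLPs ran from -0.51 (Nupr1, -1.25 to 0.23) to 0.25 (Aldh1a1, -0.50 to 1.00), and in GMPs from -0.35 (Selp, -0.94 to 0.25) to 0.41 (Aldh1a1, -0.26 to 1.08). The intervals of the 8 genes reached from -1.44 (Sult1a1) to 1.16 (Plscr2) in CLPs, so differences inside them were not excluded. When the differences of O-NR and O-WT were compared between HSCs and progenitors directly, none of the 8 was called against CLPs (1.02% of all genes called) or GMPs (0.379%). Selp came nearest, at 0.82 (0.11 to 1.54, unadjusted edgeR p of 0.0248, adjusted p = 1.00) between HSCs and GMPs, where 2.59% of all genes were below 0.05.

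Cohort 1 asks in addition whether HSCs keep an altered state once NR is withdrawn. None of the 8 genes was called between O-NR and O-WT (0.048% of 33350 genes called), between O-NR-RC and O-NR (0.036%) or between O-NR-RC and O-WT (0.078%), in edgeR or DESeq2, and none had an unadjusted p-value below 0.05 in either tool, as 0.546%, 0.291% and 0.795% of all genes had in edgeR. Between O-NR and O-WT none of the 8 was without overlap (4.51% of all genes). The comparisons share libraries with each other and are not independent.

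Clu had the lowest p-value of the 8 genes in cohort 1, in O-NR-RC against O-NR. It measured 37.3 and 63.6 CPM in O-WT, 54.8, 61.6, 74.9 and 64.9 CPM in O-NR and 30.0, 54.3 and 53.2 CPM in O-NR-RC. All 3 O-NR-RC libraries lay below all 4 O-NR libraries, which 1.03% of all genes did in either direction, though O-NR-RC 2 and O-NR 1 were nearly equal. The log2 difference of O-NR-RC from O-NR was -0.66 (-1.38 to 0.07, unadjusted edgeR p of 0.072), and that of O-NR from O-WT was 0.29 (-0.53 to 1.10). Nupr1, the other stress gene, measured 88.7 and 143 CPM in O-WT, 69.0, 75.9, 129 and 149 CPM in O-NR and 121, 89.2 and 90.1 CPM in O-NR-RC. O-NR 1 and 2 were low and O-NR 3 and 4 high, and the groups overlapped throughout.

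Selp measured 179 and 132 CPM in O-WT, 107, 130, 145 and 185 CPM in O-NR and 226, 124 and 125 CPM in O-NR-RC. Sult1a1 measured 138 and 76.0 CPM in O-WT, 74.8, 70.4, 92.2 and 90.4 CPM in O-NR and 162, 74.6 and 83.4 CPM in O-NR-RC. Clca3a1 measured 177 and 104 CPM in O-WT, 76.6, 95.3, 132 and 104 CPM in O-NR and 191, 98.6 and 81.6 CPM in O-NR-RC. In each of these 3 genes O-NR-RC 1 was the highest of the 9 libraries and the other O-NR-RC libraries lay at or below the median of the 9. Between O-NR-RC and O-NR the log2 differences of Selp, Sult1a1 and Clca3a1 were 0.23, 0.49 and 0.39, and without O-NR-RC 1 they were -0.67, -0.51 and -0.65. Their direction in this comparison therefore rests on 1 library.

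Aldh1a1 measured 188 and 198 CPM in O-WT, 133, 112, 195 and 217 CPM in O-NR and 226, 122 and 132 CPM in O-NR-RC, with O-NR 1, O-NR 2, O-NR-RC 2 and O-NR-RC 3 at 112 to 133 CPM and all others at 188 CPM or above. These 4 are the libraries with the high receptor gene sums. Plscr2 lay at 42.6 and 50.9 CPM in O-WT and at 37.6, 37.3 and 36.9 CPM in O-NR-RC, without overlap, which 4.49% of all genes also showed, and the O-NR libraries (35.8 to 50.7 CPM) spanned both. Jam2 varied least, from 52.0 to 67.8 CPM over the 9 libraries. Megakaryocyte and platelet markers summed to 181 to 183 CPM in O-WT, 103 to 135 CPM in O-NR and 123 to 226 CPM in O-NR-RC. Most of that sum was Itga2b, at 77.8 to 200 CPM over the HSC libraries of cohort 1. Itga2b is also one of the further genes known to be higher in old HSCs, so the sum does not measure megakaryocytes and platelets alone. B and plasma cell markers summed to 21.3 to 28.3, 15.8 to 45.4 and 48.1 to 208 CPM in the same order of groups. The part of either marker set in these levels was not tested. The median log2 difference of the 8 genes from O-WT was -0.22 in O-NR and -0.19 in O-NR-RC, beside all-gene medians of -0.0067 and 0.013. With 1 library left out the first ran from -0.49 (without O-NR 4) to -0.08 (without O-NR 1). The second ran from -0.86 without O-NR-RC 1 to 0.08 without O-NR-RC 2 and 0.07 without O-NR-RC 3, so its sign and size rest on single libraries.

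Without the 4 libraries of high receptor gene sums, an alternative added after the data had been seen that leaves a lone O-NR-RC library beside 2 from O-WT and 2 from O-NR mice, the picture of cohort 1 changed. Clu was then called in 2 of the 3 comparisons, at 0.61 (unadjusted edgeR p of 0.00154) in O-NR against O-WT and at -1.03 (p of 8.5e-05) in O-NR-RC against O-NR. Sult1a1 (1.01), Clca3a1 (0.88) and Selp (0.63) were called higher in O-NR-RC than in O-NR, and Selp (0.84), Sult1a1 (0.89), Clca3a1 (0.74) and Aldh1a1 (0.54) higher in O-NR-RC than in O-WT. In these fits 1.92%, 3.86% and 10.6% of all genes were called in O-NR against O-WT, O-NR-RC against O-NR and O-NR-RC against O-WT. The only O-NR-RC library left was O-NR-RC 1, whose spread is assumed to be that of the other groups, so what is measured there is that library. The median of the 8 genes turned to 0.14 in O-NR and 0.49 in O-NR-RC relative to O-WT, where 3 and 4 of the 8 kept their sign.

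**Figure D4:**
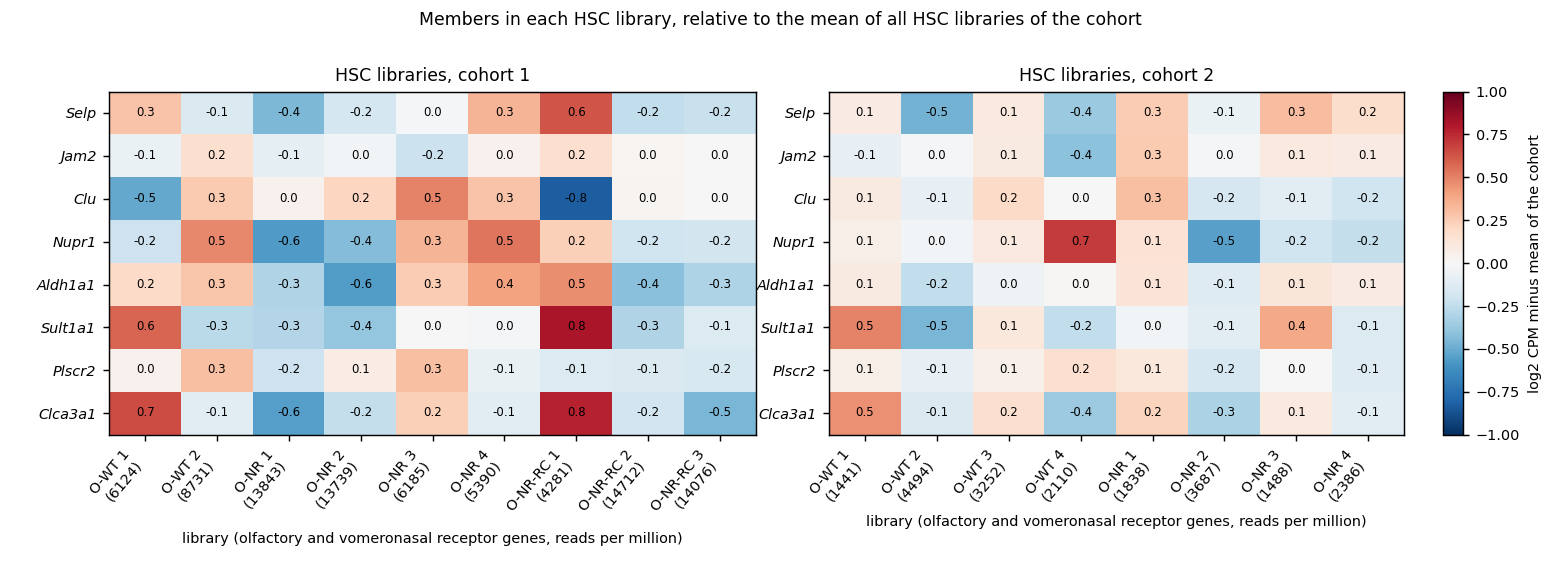
Log2 CPM of the 8 genes in each HSC library relative to the mean of all HSC libraries of its cohort (colour and printed value), with the receptor gene sum of each library in CPM under its name. In cohort 1, O-NR-RC 1 and O-WT 1 are high in Sult1a1, Clca3a1 and Selp and low in Clu, and in cohort 2 O-WT 4 is high in Nupr1 and low in Selp, Jam2 and Clca3a1.

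Over both cohorts, with the cohort as a term, none of the 8 genes was called between O-NR and O-WT HSCs (0.103% of 23413 genes called), and none had an unadjusted p-value below 0.05 in edgeR or DESeq2 (0.923% of all genes in edgeR). Selp was at 0.17 (-0.26 to 0.59), Jam2 at 0.10 (-0.18 to 0.38) and Nupr1 at -0.26 (-0.74 to 0.22) on the log2 scale. The estimates of Selp and Jam2 were positive in cohort 2 and negative in cohort 1 (-0.19 and -0.21), and that of Nupr1 was negative in both (-0.12 in cohort 1). None of these 3 signs in cohort 1 was stable, since without the 4 libraries of high receptor gene sums Selp was at 0.21 and Nupr1 at 0.41 (unadjusted edgeR p of 0.0278), and Jam2 was at 0.03 with TMM over genes of at least 50 CPM. The test of the difference between cohorts called none of the 8 (0.137% of all genes called), and had its smallest p-value among them for Jam2 (0.45, -0.10 to 0.99, unadjusted edgeR p of 0.103).

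The 8 genes differed in how much they varied between HSC libraries. In cohort 2 the highest library exceeded the lowest 2.36-fold for Nupr1, 1.94-fold for Sult1a1, 1.77-fold for Clca3a1, 1.72-fold for Selp and 1.59-fold for Jam2, and 1.41-fold for Clu, 1.29-fold for Aldh1a1 and 1.27-fold for Plscr2. In cohort 1 Clu and Clca3a1 spanned 2.49-fold each, Sult1a1 2.30-fold, and Jam2 1.30-fold. Within the treatment groups of cohort 2, edgeR's biological coefficient of variation was 0.198 for Sult1a1, 0.178 for Clca3a1, 0.177 for Nupr1 and 0.159 for Selp, more than in 99.3%, 98.4%, 98.4% and 95.3% of genes at a like level. Plscr2 (0.118) stood above 54.2% of such genes.

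In HSC libraries the sum of the 8 genes was mostly lower where the receptor gene sum was higher. In cohort 1 the 8 genes summed to 608 to 663 CPM in the 4 libraries of high receptor sums and to 835 to 1060 CPM in the other 5, and in cohort 2 HSCs to 871 to 1195 CPM. Not every gene followed the sum. Jam2 lay at 56.6 to 61.1 CPM in those 4 libraries, within the 52.0 to 67.8 CPM of the other 5. Clu was lowest (30.0 CPM) in O-NR-RC 1, the cohort 1 library with the lowest receptor sum (4281 CPM). In CLPs and GMPs the relation of the sums ran the other way. The sum of the 8 genes was 31.2 to 91.0 CPM in CLPs and 19.4 to 46.9 CPM in GMPs, and its highest value fell in the library with the highest receptor sum of each type, CLP O-WT 3 and GMP O-WT 4. The part of the receptor gene reads in these levels was not tested.

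**Figure D5:**
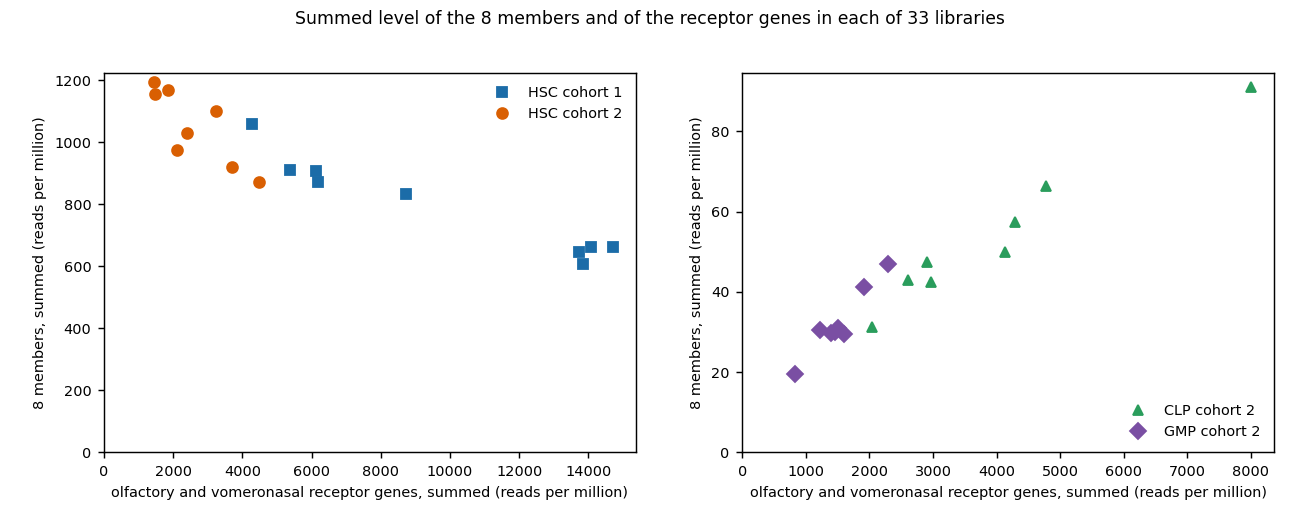
Sum of the 8 genes against the sum of 1736 olfactory and vomeronasal receptor genes, both in CPM, in each of 33 libraries, HSCs on the left and CLPs and GMPs on the right. HSC libraries with more receptor reads mostly hold a lower sum of the 8 genes, down to 608 CPM in cohort 1. CLP and GMP libraries with more receptor reads mostly hold a higher sum, up to 91.0 CPM.

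Partners and relatives of the 8 genes were taken from a list of 32, among them the P-selectin ligand Selplg, genes of retinoic acid handling, the Papss enzymes that make the sulfate donor, other scramblases and Clca genes, Jam2 partners, and stress genes that act with Nupr1. Between HSCs and CLPs 15 of the 32 were called higher in HSCs and 8 lower, and between HSCs and GMPs 13 higher and 7 lower. Of all genes, 10.4% and 8.63% were called higher in HSCs in these comparisons, and 18.7% and 19.2% in either direction. Selplg was lower in HSCs, by log2 differences of -1.53 and -1.67. Of the retinoic acid genes, the degrading enzyme Cyp26b1 was higher in HSCs (3.75 and 4.29), as were the receptor genes Rarb (2.45 and 2.86) and Rarg (2.72 and 1.76). For these and Rdh10 every HSC library lay above every progenitor library. For Aldh1a2, Aldh1a3 and Rara the lowest cohort 2 HSC library (2.69, 2.41 and 17.7 CPM) lay below the highest progenitor library (12.9, 14.9 and 52.7 CPM). The scramblase Plscr4 (3.96 and 4.96) and the junctional gene F11r (3.77 and 4.00) were higher in HSCs too, and Jam3 by 1.69 and 2.17.

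Between treatments, 1 of the 27 listed partners tested in cohort 2 HSCs was called, Cyp26b1, where 0.777% of all genes were called. Cyp26b1 measured 35.8, 33.6, 42.2 and 74.1 CPM in O-WT and 61.5, 68.2, 77.9 and 70.3 CPM in O-NR. The O-WT libraries 1 to 3 lay below all O-NR libraries and O-WT 4 among them. The log2 difference was 0.62 (unadjusted edgeR p of 0.00829, adjusted p = 0.995), and 0.95 (p of 4.51e-06) without O-WT 4, while leaving out any one of O-WT 1 to 3 or O-NR 2 to 4 brought p to between 0.0121 and 0.0346, and 3 other scalings to between 0.0101 and 0.0118. Over both cohorts Cyp26b1 was at 0.56 (unadjusted edgeR p of 0.00855), where 0.103% of all genes were called. That call was lost with DESeq2 (p of 0.0143), with DESeq2's size factors, with no filter, with the replicate block, and without any one of O-WT 2, O-NR 3 and O-NR 4 of cohort 1 or O-WT 1 to 3, O-NR 1, O-NR 3 and O-NR 4 of cohort 2 (p up to 0.0242). Clca3a2 was the only further partner called, between the NR differences in HSCs and GMPs (-1.48, unadjusted edgeR p of 0.00956), at levels of 0.659 to 6.05 CPM in those libraries. Of all genes, 0.379% were called in that comparison.

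A further 22 genes known to be higher in old HSCs, such as Vwf, Itgb3, Alcam and Ehd3, were also mostly HSC-high. All 22 were called higher in HSCs than in CLPs (median log2 difference 3.01), as were 10.4% of all genes. Among the 22 is Slamf1, whose product CD150 was used in the sort and is no finding. Against GMPs 20 were called higher (median 2.97 over the 22), as were 8.63% of all genes. Mt1 was called lower (-1.08) and Itga2b was not called (0.12, -0.23 to 0.47). None of the 22 was called in any treatment comparison, where 0.036% to 1.02% of all genes were. In cohort 2 HSCs their median log2 difference between O-NR and O-WT was 0.075, beside 0.017 for the 8 genes and -0.0069 for all genes. In cohort 1 it was -0.20 for O-NR (19 negative, 3 positive) and -0.21 for O-NR-RC (17 negative, 5 positive), each against O-WT. The all-gene medians there were -0.0067 and 0.013. The difference of the NR effect between cohorts was positive for 21 of the 22, with a median of 0.34. These genes were measured in the same libraries and are not independent.

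The genes most like the mean pattern of the 8 over the 24 libraries of cohort 2 were sought among 22573 genes. Clec1a, Gm10419, Col16a1, Ltbp3 and Tgm2 had the highest correlations of log2 CPM, with Pearson's r of 0.994 to 0.995. The points are libraries of 3 cell types, so these values reflect the difference between HSCs and progenitors for the most part. Tgm2 averaged 410 CPM over HSC, 7.57 CPM over CLP and 3.01 CPM over GMP libraries, and Clec1a 99.0, 5.96 and 2.75 CPM.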

How the data were processed

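Total RNA of sorted cells was sequenced in 33 libraries. Per the labels, the authors used cutadapt, STAR and featureCounts on mm10, and their text names Gencode M22. Versions of STAR and featureCounts and the strand setting of the counting are not given in the sources used here. The values the authors deposited are whole-number counts of reads per gene symbol, not normalized. The labels name the library kit Standard where the methods name it Stranded.

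Counts were analysed with R 4.3.3, edgeR 4.0.16, limma 3.58.1 and DESeq2 1.42.0, and levels with python 3.11.15. CPM are per 1000000 reads counted on genes. For treatment comparisons, genes entered if they exceeded 3 CPM in a number of libraries equal to the smaller group's size, TMM scaled the libraries, and groups were compared by edgeR's quasi-likelihood test. A gene was called at an unadjusted p-value below 0.01, with the Benjamini-Hochberg adjusted p over all genes tested beside it. Cohort 1 was fitted as 9 libraries with 3 groups, and each cell type of cohort 2 alone. Cell types were compared over the 24 libraries of cohort 2, on genes of at least 10 reads in all, at an adjusted p below 0.05. Gene positions and exon lengths came from Gencode M21, which held 54510 of the symbols and lacked 866. Promoters came from RefSeq. The fits were checked on simulated counts.

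The 8 genes and the lists of partners, further old HSC genes and markers were chosen with earlier results of these data known. Named besides the 8 were listed genes with an unadjusted p below 0.01 in a treatment comparison, examples of the called partners between cell types, near relatives, and the 5 genes most like the 8. A few genes of the partner and marker lists are not reported here, and the lists' sums and counts are given without them. Samples were grouped by their labels. No 2 libraries of a group agreed within sampling noise (lowest chi-square per degree of freedom 1.91), so none was taken as a duplicate. Libraries of cohort 2 with the same treatment and number in different cell types carry the same animal number in the labels, which do not say whether it stands for 1 mouse or a pool. The main fit between cell types did not use that number, and a fit with it as a block was an alternative. O-WT and O-NR libraries of the same number are different mice. Their deviations correlated at -0.34 to 0.64 in HSCs of cohort 2, which does not pair them. Alternatives were other scalings, DESeq2, filters, blocks, covariates and leaving out each library.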

Additional observations from a re-analysis of the deposited data

Results flagged for a closer look

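Each of the 8 genes was tested in each group of 4 libraries for a library far from the rest. Of these 56 tests 4 found one, where chance gives about 2.8, and the tests share libraries and are not independent. In HSCs of cohort 2, Clu stood at 81.6 CPM in O-NR 1, with the other O-NR libraries at 57.7 to 61.3 CPM, and Nupr1 stood at 164 CPM in O-WT 4, with the other O-WT libraries at 99.2 to 108 CPM. Jam2 stood at 18.2 CPM in CLP O-WT 3, with the others at 6.31 to 8.33 CPM, and at 6.72 CPM in GMP O-WT 4, with the others at 2.75 to 3.05 CPM. The last 2 libraries hold the highest receptor gene sums of their cell types, 8004 and 2294 CPM, and the part of those reads was not tested.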

How the results depend on the processing

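The calls of all 8 genes between HSCs and CLPs or GMPs were the same under every alternative run, the mouse as a block among them. Of 259 counts of called genes compared among the 8, 242 were unchanged within 1.5 times and 17 rose. Between O-NR and O-WT HSCs of cohort 2, where none was called, 2 were called with 1 RUVr factor (Selp and Nupr1), 2 with the receptor gene sum as a covariate, 1 with TMM over genes of at least 50 CPM (Nupr1), and 0 to 1 with a library left out, which were Selp without O-WT 1 and Nupr1 without O-WT 2. In cohort 1, 1 RUVr factor brought the count to 3 in O-NR against O-WT, 1 in O-NR-RC against O-NR (Clu) and 2 in O-NR-RC against O-WT. The receptor covariate brought it to 2 in O-NR-RC against O-NR (Clu and Sult1a1). With 1 RUVr factor, 3737 of 33350 genes were called in O-NR against O-WT of cohort 1 and 4688 in O-NR-RC against O-WT. In HSCs of cohort 2 that factor gave 622 of 17364 genes called. Without the 4 libraries of high receptor sums the counts were 1, 4 and 4, and Clca3a1 (0.74, from -0.14) and Aldh1a1 (0.54, from -0.25) reversed in O-NR-RC against O-WT. Leaving out 1 library gave 0 to 1 genes called in the differences between HSCs and progenitors, Selp each time. Such fits called 451 to 756 of all genes for CLPs and 150 to 399 for GMPs. For the other settings named here without a share, ranges of all genes called are given below. The cause of these changes of the 8 genes was not tested.

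With the replicate number as a block, 2 of the 8 were called in cohort 2 HSCs (Selp and Nupr1) and 1 over both cohorts (Nupr1). The shares of all genes called in those 2 fits are not given here. In the difference between cohorts 5 of the 8 were called, in a fit that called 3813 of 23413 genes. No other call of the 8 changed under this block. The replicate numbers do not pair O-WT with O-NR mice.

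The number of all genes called was less stable. In HSCs of cohort 2 it was 135, 75 to 235 with a library left out and 33 to 622 otherwise. In CLPs it was 82, 28 to 135 and 71 to 805, and in GMPs 133, 58 to 292 and 14 to 366. In cohort 1 it was 16 for O-NR against O-WT (4 to 46 and 4 to 3737), 12 for O-NR-RC against O-NR (7 to 135 and 8 to 988) and 26 for O-NR-RC against O-WT (5 to 484 and 3 to 4688), each highest among leave-outs without O-NR-RC 1. Over both cohorts it was 24 (16 to 46 and 11 to 222), and 32 for the difference between cohorts (5 to 159 and 32 to 3813). Library totals in place of TMM moved the all-gene median by -0.14 in CLPs and 0.17 in O-NR against O-WT of cohort 1, and only 3 of the 8 kept their sign in CLPs. It moved by 0.28 in O-NR-RC against O-WT, and by 0.50 there with TMM over genes of at least 50 CPM, and 6 of the 8 kept their sign under each. The same scalings moved it by 0.46 and 0.62 between HSCs and GMPs, where all 8 kept their sign.

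The count of mice per library, the strand setting and the 2 O-WT libraries of cohort 1 limit what can be said. Differences inside the intervals given were not excluded.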
